A study of Homo sapiens with 2 samples.

Results

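Stop codon clusters are stretches at the end of the coding sequence where PAR-CLIP reads of an RNA-binding protein overlapped and carried T-to-C conversions. The genes described here are those with 1 or more clusters counted at the stop codon in the ZC3H7B library, the ZC3H7A library or both, after rows for repeats, tRNAs and small RNA classes were left out. There were 1970 such genes of 10151 with any cluster, and they held 2600 stop codon clusters of 151629 clusters in all. The ZC3H7B library had 1845 stop codon clusters of 99812, and the ZC3H7A library had 755 of 51817. The number of stop codon clusters chose the genes, so it is given as a description and supports nothing by itself. Of the 1970 symbols, 1958 matched a RefSeq gene table and 1955 of them were protein-coding.

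At a stop codon the ribosome has no tRNA to accept. Release factors enter and free the finished protein, and the ribosome is then split from the mRNA. The stop codon is also the border between coding sequence, which ribosomes travel along, and the 3' UTR, where regulatory proteins can stay attached. ZC3H7B and ZC3H7A are a pair of CCCH zinc finger proteins, and the series was set up to study how they act on mRNA translation and stability by codon.

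Both libraries came from HEK293, a human embryonic kidney cell line, made to overexpress a Flag/HA-tagged protein by 24 h with 1 µg/mL doxycycline. The cells carried either Flag/HA-ZC3H7B or Flag/HA-ZC3H7A, and the labels name 1 library for each as replicate 1. All cells were labelled for 16 h with 100 µM 4-thiouridine and irradiated at 365 nm, and the RNA was cut with RNase T1 and read as 50 nt single ends. Each protein thus has a single library, and neither a control nor a repeat was analysed here. Intervals on differences between the proteins therefore cover counting error alone, and no test was made. Variation between libraries of the same protein was not measured. The labels also describe the culture of a Flp-In T-REx derivative of HEK293, made for inducible transgenes, and do not say how many clones were used. The proteins were made from a transgene under doxycycline, so binding at natural protein levels was not measured. Of 8 genes listed as HEK293 markers, 4 had clusters in the ZC3H7B library and 5 in the ZC3H7A library, and of 8 genes of other lineages 0 had clusters in either, though clusters are not a measure of expression.

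Clusters of the genes kept held 2409541 reads in the ZC3H7B library, of which 1213039 were distinct. In the ZC3H7A library they held 3780104, of which 300394 were distinct. Reads outside these clusters are not counted here. A distinct read was counted 1.99 times on average in the ZC3H7B library and 12.6 times in the ZC3H7A library. Intervals in brackets are exact 95% intervals for counting error only, and PCR copies make those on reads too narrow even for that. The tables give numbers of clusters per region of a gene and no coordinates of clusters. The distance from the codon at which a cluster still counted as a stop codon cluster is not given in the sources used here. Neither the ZC3H7B nor the ZC3H7A transcript had a stop codon cluster in either library.

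Stop codons held 1.85% of clusters (1.77 to 1.93%) in the ZC3H7B library and 1.46% (1.36 to 1.56%) in the ZC3H7A library, a share 1.27-fold higher with ZC3H7B (1.17 to 1.38). The stop codon thereby lay between its neighbours, since the share of coding sequence was 0.693 times that of ZC3H7A (0.681 to 0.705) and the share of the 3' UTR 1.40 times (1.38 to 1.43). For the start codon the ratio was 0.45 (0.404 to 0.501). The intervals on these shares and ratios count each cluster as independent. Clusters on 1 gene share its reads, so these intervals can be too narrow. By gene, 1709 of the 9163 genes listed for ZC3H7B (18.7%) and 716 of the 8209 listed for ZC3H7A (8.72%) had a stop codon cluster. Most carried exactly 1, namely 1579 genes in the ZC3H7B library and 680 in the ZC3H7A library. There were 124 genes with 2 and 6 with 3 in the ZC3H7B library, against 33 and 3 in the ZC3H7A library.

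Genes with many clusters had a stop codon cluster more often. In the ZC3H7B library the share of genes with one was 2.30% (1.63 to 3.16%) among genes with 1 cluster and 40.5% (38.1 to 42.9%) among genes with 20 or more. With ZC3H7A these shares were 1.45% (0.978 to 2.06%) and 25.9% (22.2 to 29.9%). The share of clusters at the stop codon did not climb in this way. It was 2.76% on genes with 5 to 9 clusters and 1.38% on genes with 20 or more in the ZC3H7B library, against 1.76% and 0.916% in the ZC3H7A library. In each of the 5 bins the share of clusters was higher with ZC3H7B. Genes just outside and just inside the rule differed in depth. In the ZC3H7B library genes without a stop codon cluster had a median of 5 clusters and 58 reads, and genes with 1 had 15 clusters and 306 reads. With ZC3H7A the medians were 3 clusters and 120 reads without, and 9.5 clusters and 587.5 reads with 1.

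**Figure D1:**
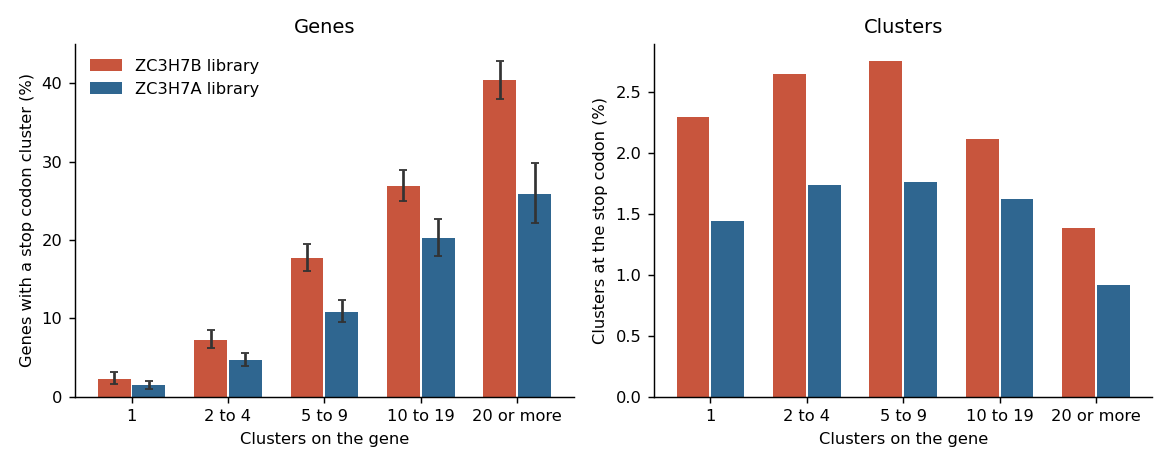
Share of genes with a stop codon cluster (left, with exact 95% intervals) and share of clusters at the stop codon (right), in percent, by number of clusters on the gene, for the ZC3H7B library (red) and the ZC3H7A library (blue). The left panel climbs to 40.5% for ZC3H7B and 25.9% for ZC3H7A, and the right panel is lowest in both libraries for genes with 20 or more clusters.

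Of the 1970 genes, 1254 had one in the ZC3H7B library alone, 455 in both and 261 in the ZC3H7A library alone. The 455 genes were 26.6% of the ZC3H7B list and 63.5% of the ZC3H7A list. A gene can be in one list alone because it has no cluster of any kind in the other library, which was so for 89 of the 1254 and 40 of the 261. The number of clusters on the gene moved with sharing as well, so genes were also compared within bins of clusters. Among genes with 5 to 9 clusters in the ZC3H7B library, 24.4% (19.7 to 29.7%) of those with a stop codon cluster had one with ZC3H7A too, against 4.52% (3.44 to 5.82%) of other coding genes. Among genes with 5 to 9 clusters in the ZC3H7A library, 59.3% (52.0 to 66.3%) of those with a stop codon cluster had one with ZC3H7B too, against 22.1% (20.1 to 24.2%) of other coding genes. The share was higher for genes with a stop codon cluster in all 5 bins of both libraries. These counts are the ones that chose the genes, and the bins match clusters in the first library only. Within the bin of 5 to 9 clusters, genes with a stop codon cluster also had more reads, with medians of 93 and 76 in the ZC3H7B library and 359 and 275 in the ZC3H7A library. The part of reads in these shares was not tested.

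**Figure D2:**
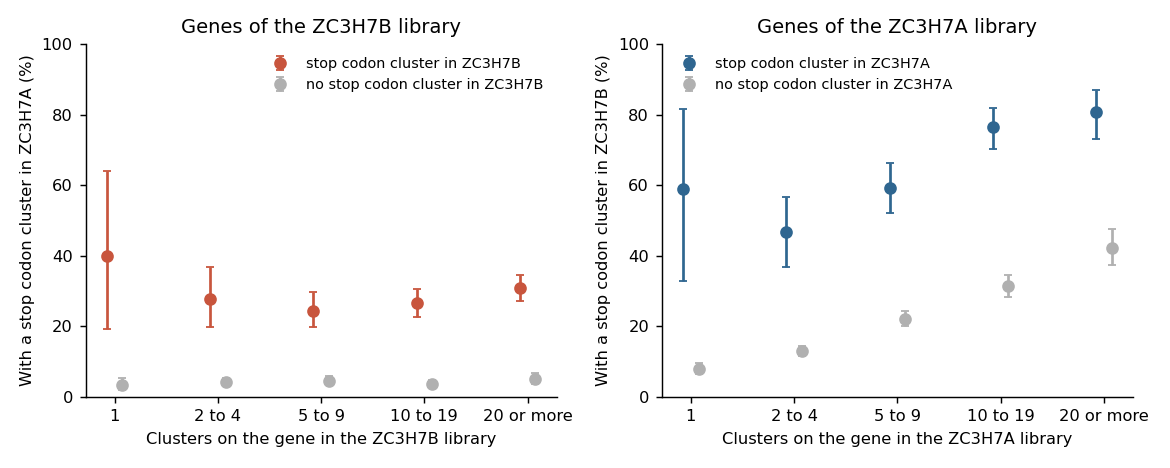
Percent of genes with a stop codon cluster in the other library, for genes with (coloured) and without (grey, protein-coding genes) a stop codon cluster in the library named above each panel, by number of clusters on the gene there. Points are shares of genes listed in both libraries with exact 95% intervals, and the coloured points lie above the grey ones in all 5 bins of both panels.

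The same counts were made for the other regions of the transcript. Of genes with a stop codon cluster in the ZC3H7A library that were listed for ZC3H7B, 67.3% also had one there. Of the genes listed in both libraries with no stop codon cluster for ZC3H7A, 17.8% had one for ZC3H7B. The same pair of shares, with and without a cluster in that region for ZC3H7A, was 34.6% and 5.40% for the start codon, 20.8% and 3.46% for the 5' UTR, 87.0% and 38.2% for coding sequence, 96.0% and 51.5% for the 3' UTR, and 63.0% and 14.3% for introns. Read from the ZC3H7B side, 28.1% of genes with a stop codon cluster that were listed for ZC3H7A had one there, and 3.95% of those without. The pairs were 40.4% and 6.80% for the start codon, 56.9% and 15.3% for the 5' UTR, 86.6% and 37.4% for coding sequence, 76.4% and 12.5% for the 3' UTR, and 51.7% and 9.47% for introns. In every region the share was higher for genes with a cluster there in the first library, and no order of the regions is drawn. The regions also differ in how many clusters each library has there, and the part of that in these shares was not tested.

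Genes with at least 2 stop codon clusters in each library were picked out after their values were seen. There were 16 of them, among 130 genes with at least 2 in the ZC3H7B library and 36 in the ZC3H7A library. SF1, which encodes a branch point binding splicing factor, had 3 of 23 clusters at the stop codon in the ZC3H7B library and 2 of 24 in the ZC3H7A library. PBK, a mitotic kinase gene, had 2 of 13 and 3 of 14. AURKB, which encodes the kinase Aurora B, had 2 of 7 and 2 of 9. The proteasome subunit gene PSMB5 had 2 of 7 and 2 of 6, and VDAC3, a channel of the outer mitochondrial membrane, had 2 of 9 and 2 of 6. Stop codons thus took 28.6% and 33.3% of the clusters of PSMB5, against 4.00% and 5.13% of those of KPNA6, an importin with 2 of 50 and 2 of 39. Several stop codon clusters on a gene can lie at different stop codons of its isoforms or beside each other at the same one, which the tables do not separate.

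The other genes with at least 2 in both follow. LDHA, which encodes lactate dehydrogenase A, had 2 of 10 clusters at the stop codon in the ZC3H7B library and 2 of 8 in the ZC3H7A library, and FDFT1, the squalene synthase gene, had 2 of 14 and 2 of 16. COX15, needed for heme A synthesis, had 2 of 24 and 2 of 18. EIF4A2, an RNA helicase of translation initiation, had 2 of 17 and 2 of 15, and DDX3X, another RNA helicase, had 2 of 28 and 2 of 24. HNRNPK, an RNA-binding protein, had 2 of 15 and 2 of 12. POLR1B, a subunit of RNA polymerase I, had 2 of 26 and 2 of 15, and MRPL42, a mitochondrial ribosomal protein, had 2 of 21 and 2 of 14. KDELR2, a retention receptor of the endoplasmic reticulum, had 2 of 25 and 2 of 14, and VAPB, a tether of that membrane, had 2 of 65 and 2 of 27. All 16 genes had clusters in other regions, so none was bound at the stop codon alone.

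**Figure D3:**
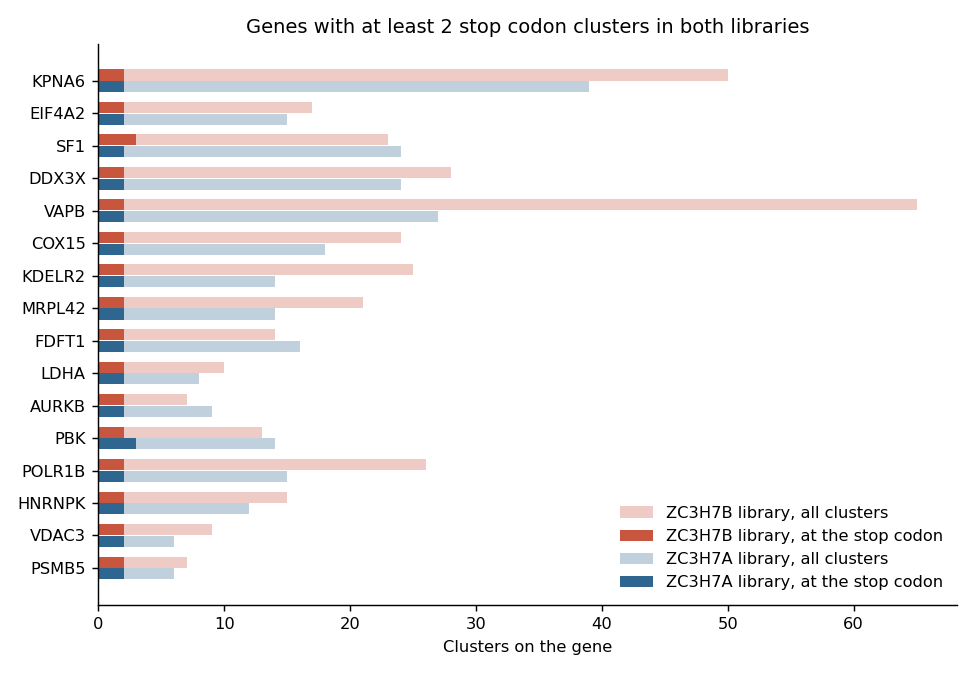
Clusters on each of the 16 genes with at least 2 stop codon clusters in both libraries, for the ZC3H7B library (red, upper bar) and the ZC3H7A library (blue, lower bar). Pale bars are all clusters and dark bars those at the stop codon; the dark part is 2 or 3 on every gene, while the pale bars run from 6 to 65.

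The most stop codon clusters on a gene were 3, seen on 6 genes of the ZC3H7B library and 3 of the ZC3H7A library. In the ZC3H7B library these were ATP2A2, the calcium pump SERCA2, with 3 of 58 clusters, STX16, a syntaxin, with 3 of 32, TARS and MARS, tRNA synthetases for threonine and methionine, with 3 of 32 and 3 of 17, DCUN1D5, a neddylation factor, with 3 of 12, and SF1. In the ZC3H7A library ATP2A2, STX16, TARS and MARS had 0 stop codon clusters among 32, 21, 23 and 10 clusters, and DCUN1D5 had 1 among 14. The genes with 3 in the ZC3H7A library were PBK, PXK, a PX domain gene, with 3 of 12, and ACADM, which encodes a fatty acid dehydrogenase of mitochondria, with 3 of 8. In the ZC3H7B library PXK had 1 of 10 and ACADM 0 of 12. ACADM thus had more clusters in the ZC3H7B library and more stop codon clusters in the ZC3H7A library, so a library with more clusters on a gene did not always have more at its stop codon.

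Among genes with at least 5 clusters, the stop codon took the largest share on HEXA, which encodes a subunit of the lysosomal enzyme hexosaminidase, and LARP7, a 7SK RNA binding protein, for ZC3H7B. Each had 2 of 6 clusters there. HEXA was not listed for ZC3H7A, and LARP7 had 0 of 4. For ZC3H7A the largest share was on CSTF3, a cleavage stimulation factor subunit, with 2 of 5 clusters, against 1 of 10 in the ZC3H7B library. ACADM followed with 3 of 8.

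Rows with 1 cluster, at the stop codon, give the reads of that cluster directly. There were 37 such genes in the ZC3H7B library and 30 in the ZC3H7A library, which is 2.17% and 4.19% of the genes with a stop codon cluster. The clusters held 5 to 95 reads with a median of 7 in the ZC3H7B library, and 5 to 187 with a median of 33 in the ZC3H7A library. In distinct reads the medians were 5 and 3. Rows whose single cluster lay in coding sequence or the 3' UTR had medians of 7 reads each in the ZC3H7B library, and 25 and 24 in the ZC3H7A library. A single stop codon cluster in the ZC3H7A library thus had more reads at the median than these neighbours, with quartiles of 16.2 and 46.2 reads against 16.0 and 39.0 for coding sequence, which overlap widely.

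The converted shares of these single clusters had intervals that overlapped those of coding sequence and the 3' UTR. Every read carried a T-to-C conversion in 20 of the 37 stop codon clusters of the ZC3H7B library (54.1%, 36.9 to 70.5%), against 63.8% (58.8 to 68.6%) in coding sequence and 61.6% (57.4 to 65.6%) in the 3' UTR. In the ZC3H7A library this was so in 21 of 30 (70.0%, 50.6 to 85.3%), against 82.2% (79.2 to 84.9%) and 80.8% (77.2 to 84.0%). Pooled over reads, 91.3% and 92.5% of reads in the single stop codon clusters were converted. Of clusters with at least 10 distinct reads, 0 of 6 in the ZC3H7B library and 0 of 1 in the ZC3H7A library were converted in every read.

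The most read single stop codon cluster of the ZC3H7B library was on NHP2, a protein of H/ACA ribonucleoproteins, with 95 reads and 40 distinct reads, 94.7% of them converted. In the ZC3H7A library NHP2 had 346 reads in 3 clusters, 1 of them at the stop codon. The most read one of the ZC3H7A library was on C7orf55, with 187 reads and 15 distinct reads, 93.6% of them converted. C7orf55 had 2 clusters with 25 reads in the ZC3H7B library, 1 of them at the stop codon. C7orf55 is also part of the name of the joint gene C7orf55-LUC7L2, which had its own stop codon cluster in the ZC3H7A library, so reads are uncertain between them. Likewise the single clusters of C8orf44-SGK3 (21 reads) and TSNAX-DISC1 (15 reads) in the ZC3H7B library lie on joint genes.

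On 5 genes the stop codon cluster was the single cluster in both libraries. RP4-734P14.4 had 31 reads in the ZC3H7B library and 71 in the ZC3H7A library, TXNDC17, a thioredoxin-like protein gene, had 28 and 41, and PRKRA, an activator of the kinase PKR, had 27 and 21. NDUFC1, a subunit of respiratory complex I, had 7 and 94 reads, and LSMD1 had 5 and 66. In distinct reads the ranges over these genes were 3 to 14 in the ZC3H7B library and 2 to 9 in the ZC3H7A library, where 2 was the lowest in any single cluster. The converted share was 96.4% in the ZC3H7B library and 61.0% in the ZC3H7A library for TXNDC17, 81.5% and 100% for PRKRA, and at least 93.9% in both for RP4-734P14.4, NDUFC1 and LSMD1.

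Most genes with a stop codon cluster also had clusters on both sides of it. Coding sequence clusters and 3' UTR clusters were both present on 1355 of 1709 genes in the ZC3H7B library (79.3%, 77.3 to 81.2%) and on 485 of 716 in the ZC3H7A library (67.7%, 64.2 to 71.2%). Coding sequence without the 3' UTR was seen on 150 genes (8.78%, 7.48 to 10.2%) and 135 genes (18.9%, 16.1 to 21.9%). The 3' UTR without coding sequence was seen on 150 genes (8.78%) and 51 genes (7.12%, 5.35 to 9.26%). HSP90AB1, a cytosolic chaperone gene, had 22 clusters in coding sequence, 1 at the stop codon and 1 in the 3' UTR in the ZC3H7B library, and 21, 1 and 1 in the ZC3H7A library. NUCKS1, a chromatin-associated protein gene, had 4, 1 and 44 in the ZC3H7B library and 6, 1 and 43 in the ZC3H7A library.

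The other clusters of these genes were set against those of coding genes without a stop codon cluster, within bins of clusters, because the rule did not use them. In the ZC3H7B library coding sequence took more of the other clusters in each of the 4 bins above 1 cluster. On genes with 10 to 19 clusters it took 35.1%, against 29.4% of the clusters of coding genes without a stop codon cluster, and on genes with 20 or more 31.8% against 26.9%. The 3' UTR took 52.4% against 60.2% and 55.6% against 63.0%. With ZC3H7A the coding share was 51.6% against 46.4% on genes with 5 to 9 clusters and 45.3% against 43.5% on genes with 10 to 19. On genes with 20 or more it was 40.1% against 41.0%, so the direction did not hold there. Clusters on 1 gene share its reads, so no interval is given for these shares.

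Start codon clusters were more frequent on genes that also had a stop codon cluster. In the ZC3H7B library 13.2% of genes with 10 to 19 clusters and a stop codon cluster had a start codon cluster, against 8.89% of other coding genes, and 22.7% against 11.8% at 20 or more clusters. With ZC3H7A they were 30.5% against 15.3%, and 35.6% against 25.8%. The direction was the same in all 4 bins above 1 cluster in both libraries. Reads per cluster moved with it. Genes with 20 or more clusters had a median of 26.0 reads per cluster with a stop codon cluster and 19.1 without in the ZC3H7B library, and 91.7 and 72.3 in the ZC3H7A library. The part of read depth in the start codon result was not tested. EIF4A2 and FDFT1 had 2 start codon clusters beside 2 stop codon clusters in both libraries.

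Reads of the genes were then compared between the libraries as the log2 ratio of ZC3H7B over ZC3H7A, shifted to a median of 0 over 7171 genes listed in both libraries with 20 or more reads in sum. Of the 1970 genes, 1841 could be compared, and their median was 0.00 (quartiles -0.92 and 0.85). The whole interval lay beyond 2-fold towards ZC3H7B for 303 of them (16.5%), where 18.3% of all genes compared did so. It lay beyond 2-fold towards ZC3H7A for 332 (18.0%), where the share of all genes was also 18.0%. Both shares are near the background. Fewer genes were called by distinct reads, 127 of the 1841 towards ZC3H7B and 209 towards ZC3H7A. Of all 7171 genes compared, 524 and 724 were called by distinct reads. The ratio describes 1 pair of libraries, and it comes from the same tables as the stop codon counts.

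The ratios are also given by which library had the stop codon cluster, as a description, since that choice of genes leans on the reads of each library and so in part sets the sign. The median log2 ratio was 0.27 for the 1165 genes with a stop codon cluster in the ZC3H7B library alone, -0.32 for the 455 with one in both, and -0.97 for the 221 with one in the ZC3H7A library alone. Higher reads with ZC3H7B were called for 261 (22.4%), 33 (7.25%) and 9 (4.07%) genes of these lists, where 18.3% of all genes compared were called. Higher reads with ZC3H7A were called for 129 (11.1%), 117 (25.7%) and 86 (38.9%), where 18.0% of all genes were. With distinct reads the medians were 0.30, -0.33 and -0.81. Calls by distinct reads were 112, 11 and 4 genes towards ZC3H7B and 57, 82 and 70 towards ZC3H7A. Of all 7171 genes compared, 524 and 724 were so called. Taken as mean reads per cluster, the 455 genes had a median of 0.061, on the other side of 0. The number of clusters moved with this. Genes with a stop codon cluster in the ZC3H7B library alone had medians of 16 clusters there and 7 in the ZC3H7A library, those with one in both had 17 and 12, and those with one in the ZC3H7A library alone had 8 and 7. Its part in the ratios was not tested.

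**Figure D4:**
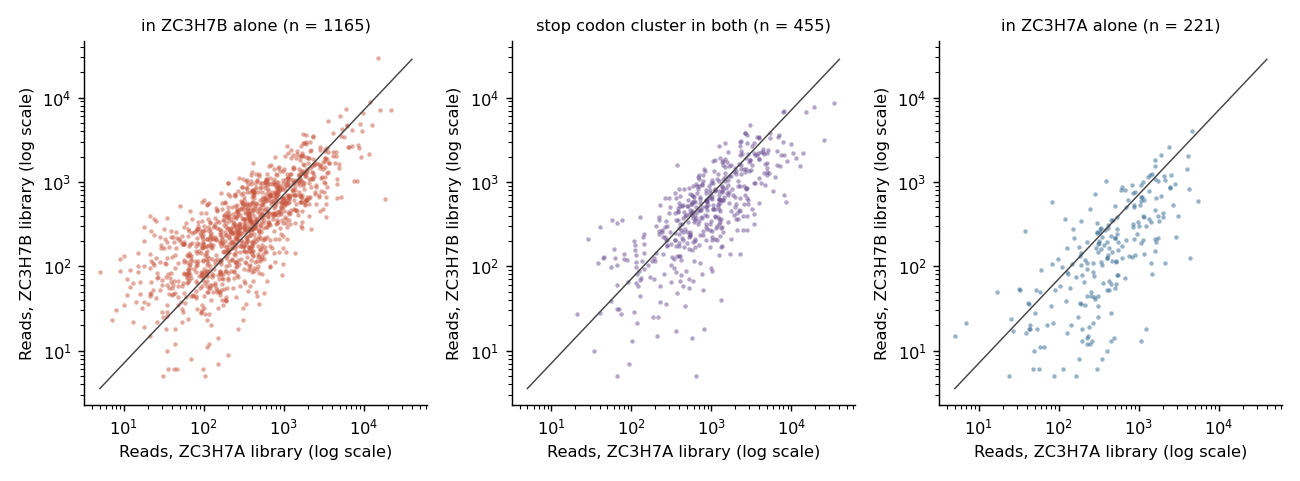
Reads per gene in the ZC3H7B library (vertical) and the ZC3H7A library (horizontal), both on log scales, for genes with a stop codon cluster in the ZC3H7B library alone (1165 genes), in both (455) and in the ZC3H7A library alone (221) that were listed in both. The line marks a log2 ratio of 0; the right panel lies mostly below it, with a median of -0.97.

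The best covered genes with a stop codon cluster in both libraries had 1 each. ZNF711, a zinc finger transcription factor gene, had 8675 reads in the ZC3H7B library and 33979 in the ZC3H7A library, with 1 of 30 and 1 of 49 clusters at the stop codon. HNRNPA2B1, an RNA-binding protein gene, had 3127 and 25355 reads and 1 of 28 and 1 of 21 clusters there. KLHL15, an adaptor of a ubiquitin ligase, had 1 of 46 and 1 of 65, and SP1, a transcription factor gene, 1 of 41 and 1 of 58. HSP90AA1 had 1 of 27 and 1 of 26, and CCND2, which encodes cyclin D2, 1 of 74 and 1 of 73. LRRC58 had 1 of 53 and 1 of 54, and ZNF529, a zinc finger gene, 1 of 66 and 1 of 48. All 8 of these genes had exactly 1 stop codon cluster in each library.

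Genes with a stop codon cluster in the ZC3H7B library alone were often well covered in the ZC3H7A library. ERC1, a vesicle scaffold gene, had 1 of 105 clusters at the stop codon in the ZC3H7B library and 0 of 45 in the ZC3H7A library, where it still had 15224 reads. CBX5, the gene of heterochromatin protein HP1 alpha, had 1 of 83 and 0 of 85, NUFIP2, an RNA-binding protein gene, 1 of 94 and 0 of 79, and SCD, a fatty acid desaturase, 1 of 46 and 0 of 42. SON, a splicing cofactor, had 2 of 78 and 0 of 74, and INSIG1, a regulator of sterol synthesis, 2 of 25 and 0 of 25. SPEN, a transcriptional repressor, had 1 of 93 and 0 of 61. The amino acid transporter SLC38A2 had 1 of 37 and 0 of 38. No difference between the libraries on a single gene was tested.

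Genes with a stop codon cluster in the ZC3H7A library alone were mostly also listed for ZC3H7B, 221 of 261. PURB, a nucleic acid binding protein, had 0 of 78 clusters at the stop codon in the ZC3H7B library and 1 of 50 in the ZC3H7A library. HMGB2, a chromatin protein, had 0 of 14 and 1 of 15, MORF4L2, a chromatin complex subunit, 0 of 13 and 1 of 16, and BIRC5, which encodes survivin, 0 of 18 and 2 of 18. HIST1H3B had 0 of 4 and 1 of 2, and HIST1H1E 0 of 3 and 1 of 4. TRIM23, a ubiquitin ligase gene, had 0 of 20 and 2 of 18. KLHL23 had 0 of 21 and 1 of 31, and ZNF800 0 of 74 and 1 of 45. PPP4R2, a protein phosphatase regulator gene, had 0 of 31 and 1 of 31, ZFP82, a zinc finger gene, 0 of 27 and 1 of 24, and C7orf55-LUC7L2 0 of 48 and 1 of 37.

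Among genes whose reads reached 100 over both libraries, the largest ratios were on genes with 1 to 3 clusters in the lower library. Towards ZC3H7B, GPM6B, a membrane glycoprotein gene, stood at a log2 ratio of 4.74 (4.11 to 5.45), with 399 reads in the ZC3H7B library and 21 in the ZC3H7A library. KLF5, a transcription factor gene, stood at 4.52, AGPAT3, an acyltransferase of lipid synthesis, at 4.41, RBMX2 at 4.27, and NUP98, a nuclear pore gene, at 4.26. All 5 had a stop codon cluster in the ZC3H7B library alone. With distinct reads RBMX2 stood at 2.85 (0.94 to 5.93) and no longer had its whole interval beyond 2-fold.

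Towards ZC3H7A, GABARAP, an autophagy gene, stood at -6.50 (-8.13 to -5.27), with 5 reads in the ZC3H7B library and 636 in the ZC3H7A library. Its single cluster of the ZC3H7B library lay at the stop codon, made of 3 distinct reads, and 1 of its 6 clusters in the ZC3H7A library did. H2AFX, a histone variant gene, stood at -5.86, CENPW, a kinetochore gene, at -5.61, RBM42, an RNA-binding protein gene, at -5.16, and YDJC came next. H2AFX, CENPW and RBM42 had a stop codon cluster in the ZC3H7A library alone, and YDJC had 1 of 3 in the ZC3H7B library and 2 of 11 in the ZC3H7A library.

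Genes were also grouped by 19 lists of families and pathways, and stop codon clusters were counted in each. Intervals on the shares of genes in a list count each gene as independent and make no allowance for the number of lists. Carrying a stop codon cluster is also what chose the genes, so these shares are a description and not a test. Replication-dependent histone genes had the largest share of their clusters at the stop codon, with 9 of 69 (13.0%) in the ZC3H7B library and 14 of 101 (13.9%) in the ZC3H7A library, against 1.85% and 1.46% over all genes. Of 24 and 32 such genes listed, 9 (37.5%, 18.8 to 59.4%) and 14 (43.8%, 26.4 to 62.3%) had one, and 6 had one in both. HIST1H4C had 1 of 2 clusters at the stop codon in the ZC3H7B library and 1 of 3 in the ZC3H7A library, and HIST1H4H 1 of 3 and 1 of 2. HIST1H1C had 1 of 5 in the ZC3H7B library and 0 of 3 in the ZC3H7A library, where it had 18305 reads. These genes had medians of 2 and 3 clusters, and their copies share sequence, so reads are uncertain between them. Transcript length was not measured here.

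Ribosomal protein and proteasome genes also had larger shares of clusters at the stop codon than all genes. Of 69 cytosolic ribosomal protein genes listed for ZC3H7B and 74 for ZC3H7A, 15 (21.7%, 12.7 to 33.3%) and 16 (21.6%, 12.9 to 32.7%) had one, and stop codons held 3.81% and 4.57% of their clusters. RPL5 had 2 of 11 and 1 of 8 clusters there, RPL27 1 of 4 and 2 of 4, and RPS4X 1 of 9 in each library. RPS23 had 1 of 28 in the ZC3H7B library and 0 of 15 in the ZC3H7A library, and RPL8 had 0 of 7 and 1 of 10. Of 64 and 67 mitochondrial ribosomal protein genes, 17 (26.6%, 16.3 to 39.1%) and 18 (26.9%, 16.8 to 39.1%) had one, with MRPS30 at 1 of 27 and 1 of 16 and MRPS35 at 1 of 16 and 1 of 9. Of 30 and 34 proteasome genes, 11 (36.7%, 19.9 to 56.1%) and 8 (23.5%, 10.7 to 41.2%) had one, with 4.81% and 5.21% of clusters. PSMB1 had 1 of 8 and 1 of 9, PSMA2 2 of 8 and 1 of 10, and PSMA4 1 of 13 in the ZC3H7B library and 0 of 10 in the ZC3H7A library. Over all genes the share with one was 18.7% and 8.72%. The ZC3H7B intervals of the cytosolic and the mitochondrial ribosomal protein genes held the share of all genes. The cytosolic ribosomal protein genes had medians of 3 and 4 clusters and the mitochondrial ones 4 and 5. The 7171 genes compared between the libraries had 9 and 4. That set leaves out genes listed in 1 library or with few reads, so it is not like the family lists. The part of coverage in these shares was not tested.

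Genes of RNA handling and protein folding were set against the same shares over all genes, 18.7% with ZC3H7B and 8.72% with ZC3H7A. Of 30 hnRNP and SR protein genes listed for ZC3H7B and 29 for ZC3H7A, 14 (46.7%, 28.3 to 65.7%) and 6 (20.7%, 7.99 to 39.7%) had a stop codon cluster, and they were richly covered, with medians of 18.5 and 14 clusters. HNRNPA0 had 1 of 20 and 1 of 27, HNRNPU 1 of 42 and 0 of 36, and SRSF1 1 of 17 and 0 of 32. Of 51 and 52 translation factor genes, 16 (31.4%, 19.1 to 45.9%) and 10 (19.2%, 9.63 to 32.5%) had one. This list goes by symbol, and those with one in the ZC3H7A library alone include EIF4EBP1, which is not itself a translation factor. The interval without it was not calculated. The initiation scaffold genes EIF4G1 and EIF4G2 had 1 each in both libraries, of 40 and 39 clusters in the ZC3H7B library and 30 and 31 in the ZC3H7A library. The elongation factor gene EEF2 had 1 of 22 in the ZC3H7B library and 0 of 33 in the ZC3H7A library. Of 52 and 50 chaperone genes, 19 (36.5%, 23.6 to 51.0%) and 12 (24.0%, 13.1 to 38.2%) had one, and 10 had one in both, among them HSP90AA1, HSP90AB1 and HSPD1. HSPA4 had 1 of 40 in the ZC3H7B library and 0 of 33 in the ZC3H7A library. The intervals of these 3 families lay above the share of all genes in both libraries, except that of the hnRNP and SR genes with ZC3H7A, which held it. The genes counted as all genes include some that are not protein-coding. Among protein-coding genes alone, 1695 of 8438 had one with ZC3H7B and 711 of 7593 with ZC3H7A. The interval of the translation factor genes with ZC3H7B held that higher share. The median number of clusters of the 3 families was also above that of all genes compared. It was 12 and 7.5 for translation factor genes and 13 and 8.5 for chaperone genes. Among all genes with 10 to 19 clusters, 26.9% had a stop codon cluster with ZC3H7B and 20.3% with ZC3H7A. Among those with 5 to 9 clusters in the ZC3H7A library it was 10.9%. The part of coverage in the shares of these families was not tested.

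The intervals of 5 larger families held the share of all genes in both libraries. Of 316 ZNF genes listed for ZC3H7B and 312 for ZC3H7A, 61 (19.3%, 15.1 to 24.1%) and 26 (8.33%, 5.52 to 12.0%) had a stop codon cluster, with ZNF146 and ZNF24 in the ZC3H7B library alone. Solute carrier genes had one on 28 of 132 (21.2%, 14.6 to 29.2%) and 6 of 118 (5.08%, 1.89 to 10.7%). SLC16A1, a lactate transporter, and SLC38A1 had one in the ZC3H7B library alone, and SLC1A5, a glutamine transporter, in both. Genes with cyclin, CDK and CDC symbols had one on 19 of 86 (22.1%) and 8 of 79 (10.1%), with CDK1 in both and CCNB1, the cyclin B1 gene, and CDC5L, a splicing factor gene, in the ZC3H7B library alone. RNF and TRIM genes had one on 21 of 84 and 8 of 72 (11.1%), with RNF11 and RNF219 in the ZC3H7B library alone and TRIM28 in the ZC3H7A library alone. RAB GTPase genes had one on 9 of 44 (20.5%) and 5 of 37 (13.5%), with RAB10 in both, RAB11A and RAB14 in the ZC3H7B library alone and RAB21 in the ZC3H7A library alone.

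RNA helicase and kinesin genes lay below or near all genes in the ZC3H7B library. RNA helicase genes had a stop codon cluster on 6 of 39 (15.4%, 5.86 to 30.5%) in the ZC3H7B library and 4 of 36 (11.1%, 3.11 to 26.1%) in the ZC3H7A library. DDX21, DDX24 and DHX15 had one in the ZC3H7B library alone. Kinesin genes had one on 2 of 29 (6.90%, 0.846 to 22.8%) and 1 of 24 (4.17%, 0.105 to 21.1%), namely KIF18B in both and KIF20A in the ZC3H7B library alone. All these intervals hold the share of all genes in the same library.

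**Figure D5:**
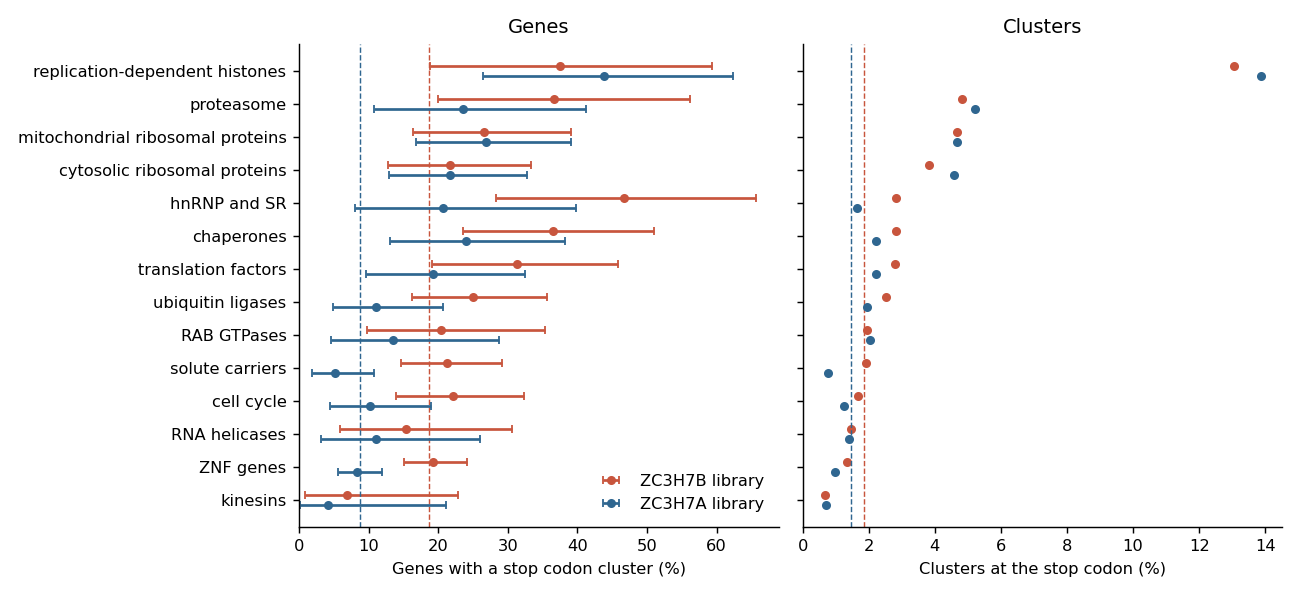
Percent of listed genes with a stop codon cluster (left, exact 95% intervals) and percent of clusters at the stop codon (right) in 14 families with at least 20 genes listed in each library, for the ZC3H7B library (red) and the ZC3H7A library (blue). Dashed lines mark all genes, at 18.7% and 8.72% on the left and 1.85% and 1.46% on the right, and replication-dependent histones stand at 13.0% and 13.9% of clusters.

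Small lists on the events at stop codons were counted as well. The list for translation termination and release also named DBR1, which acts on introns and is not a release factor. Of 11 genes of this list with clusters in each library, 2 had a stop codon cluster in both. These were GSPT1, which encodes the release factor eRF3a, with 1 of 49 clusters in the ZC3H7B library and 1 of 37 in the ZC3H7A library, and OGFOD1, a hydroxylase of a ribosomal protein, with 2 of 11 and 1 of 5. Of nonsense-mediated decay genes, 4 of 17 (23.5%, 6.81 to 49.9%) had one in the ZC3H7B library and 0 of 15 in the ZC3H7A library, where the interval reaches 21.8%. Among them were SMG1 with 1 of 56 clusters, UPF3B with 1 of 6 and MAGOHB with 1 of 7. In the ZC3H7A library SMG1, UPF3B and MAGOHB had 12, 2 and 5 clusters, fewer than in the ZC3H7B library.

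Transcripts known for stop codon readthrough or recoding were counted against the same 18.7% and 8.72% of all genes. Of transcripts reported to undergo stop codon readthrough, 5 of 11 (45.5%, 16.7 to 76.6%) in the ZC3H7B library and 3 of 10 (6.67 to 65.2%) in the ZC3H7A library had a stop codon cluster, and both intervals hold the share of all genes. LDHB, which encodes lactate dehydrogenase B, had 1 of 12 and 1 of 15, and MDH1, which encodes malate dehydrogenase, 1 of 8 and 1 of 13. VEGFA, a growth factor gene, had 1 of 16 in the ZC3H7B library and 0 of 16 in the ZC3H7A library, and EDEM3 1 of 24 and 0 of 5. Selenoprotein genes, which read an internal UGA as selenocysteine, had one on 6 of 12 (50.0%, 21.1 to 78.9%) and 3 of 14 (21.4%, 4.66 to 50.8%). TXNRD1, a thioredoxin reductase gene, had 1 of 27 in each library, SEP15 1 of 13 and 1 of 10, SEPHS2 2 of 15 and 0 of 13, and EPT1 1 of 27 and 0 of 17. Whether the internal UGA was counted as a stop codon is not given in the sources used here.

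Of 4 genes of the frameshifted antizyme list with clusters, 3 had a stop codon cluster in the ZC3H7B library and 1 in the ZC3H7A library. OAZ1, an inhibitor of ornithine decarboxylase whose translation needs a frameshift, had 1 of 9 and 2 of 10 clusters at the stop codon. OAZ2 had 1 of 11 in the ZC3H7B library and 0 of 7 in the ZC3H7A library. AZIN1, which is an antizyme inhibitor and not itself an antizyme, had 1 of 35 and 0 of 14. With so few genes in these lists, the intervals hold the share of all genes in the same library, except those of the selenoprotein and antizyme lists in the ZC3H7B library. The antizyme interval there (19.4 to 99.4%) rests on 4 genes with AZIN1 included. It held the share over protein-coding genes alone, 1695 of 8438.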

How the data were processed

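PAR-CLIP clusters of Flag/HA-ZC3H7B and Flag/HA-ZC3H7A were read from 1 deposited gene table per library. Clusters, reads, distinct reads and clusters per region are counts that the authors summed per gene, per the file headers. The stop and start codon columns were entered as scores because the deposited tables do not state how a codon cluster was defined, though they hold whole numbers. The T-to-C fraction used here is the authors' sum over the clusters of a gene divided by its number of clusters. For a gene with 1 cluster it is the fraction of that cluster. The authors also give a median over the clusters of a gene, per the file headers. Their sums and medians over clusters were entered as scores. The submitters' processing notes name cutadapt, Bowtie, STAR 2.5.2a and hg19; the cluster caller is not given in the sources used here.

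Rows typed repeat, tRNA, srpRNA, scRNA or RNA were left out, 403 of 9566 in the ZC3H7B table and 277 of 8486 in the ZC3H7A table, and 0 of them had a stop codon cluster. Clusters with no named region were 5.22% with ZC3H7B and 4.88% with ZC3H7A. Symbols were matched to a RefSeq table of GRCh38.p14 for names and gene types only. Shares carry exact Clopper-Pearson 95% intervals. The log2 read ratio carries an exact conditional interval for counting error, and a gene was called where the whole interval lay beyond 2-fold. Gene families were listed by symbol or symbol prefix. Genes named are those with the most stop codon clusters, the most reads, the highest and lowest ratios and, of each family, 2 to 4 with the most reads; the 16 genes with at least 2 stop codon clusters in both libraries, and genes with the largest share of clusters there or cited as examples of a cluster mix, were chosen after their values were seen. The values of 1 gene that the rule names are not reported here. The genes and lists were chosen with earlier results of these data known. The interval was tested on simulated data that held counting error alone, without PCR copies or spread between libraries. That test does not show how the interval does where those are present, as in these data. Python 3.11.15, scipy 1.17.1 and, for scaling alone, edgeR 4.0.16 in R 4.3.3 were used.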

Additional observations from a re-analysis of the deposited data

How the results depend on the processing

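No paired analysis was possible because each protein had 1 library. The stop codon share of clusters was 1.22 to 1.31 times as high with ZC3H7B under 6 other filters and denominators, and 2.14 times as high when genes with a stop codon cluster were counted in place of clusters. The genes with a stop codon cluster in both libraries numbered 387 to 455 under 4 other filters, and 16 with a minimum of 2 stop codon clusters. In the fifth of the bins, when it held as many genes ranked by distinct reads, 45.4% had a stop codon cluster with ZC3H7B and 33.4% with ZC3H7A. Among single stop codon clusters with at least 10 distinct reads, 0% were converted in every read with ZC3H7B (of 6) and with ZC3H7A (of 1). With at least 20 reads it was 0% with ZC3H7B (of 7) and 61.9% with ZC3H7A (of 21).

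For all genes with a stop codon cluster the median was 0.11 by mean reads per cluster, -0.17 by number of clusters, 0.16 by total reads, -0.22 with missing genes kept at 0, and -0.32 for genes in both lists only. For genes in both lists it was 0.061, reversed, by mean reads per cluster, -0.54 by clusters, -0.17 by total reads and -0.58 with missing genes at 0. For the ZC3H7B library alone these were 0.18, 0.074, 0.42 and 0.14. For the ZC3H7A library alone they were -0.17 by mean reads per cluster and -1.51 with missing genes at 0. Scaling to total reads moved the median of all genes by 0.16. A named gene was counted as reversed only where its reads were called beyond 2-fold, as for 68 of 142. Sign changes of other genes were not counted, such as that of DDX3X, at 0.82 and by number of clusters at -0.70. Of 1130 values for the 142 genes, 128 crossed 2-fold without being counted as reversed, and 10 were reversed. By number of clusters these were ATP2A2 at -0.0680, C7orf55 and HIST1H3B at 0.074, KDELR2 at -0.0895 and KPNA6 at -0.57. By mean reads per cluster they were EEF2 at 0.47, HIST1H4A at 0.10, NHP2 at 1.19, POLL at 1.42 and ZNF711 at 0.21. The cause was not tested. With 1 library each, the intervals cover counting error alone and not the spread between libraries. Distinct reads, fewer in the ZC3H7A library, limit the values further there.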
